A study of Yarrowia lipolytica with 6 samples.

Results

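ALK3, ALK6 and ALK11 encode cytochrome P450 enzymes of the oil yeast Yarrowia lipolytica, and their transcripts were compared between a strain lacking Snf1 and its wild type. The 3 genes were chosen by name: each is listed under that name in the authors' deposited table of differential expression, and each has 1 row among the 9235 rows of the count files (rna-XM_504311.1 for ALK3, rna-XM_500402.1 for ALK6 and rna-XM_501667.1 for ALK11). The deletion group, ∆Snf1, was made by homologous recombination in the labels' words and had 3 libraries. The wild type group was the strain CXAU/AI, also with 3 libraries, and the labels call the libraries of both groups biological replicates. Both strains had a 48 h preculture and a 24 h culture at 30 °C in SG medium with uracil. Both were then kept for 1 h with 2% n-decane, an alkane, and 1% uracil, and parted from the oil with 0.1% Triton-X. No library without decane was used, so a difference that was present before decane cannot be told apart from one that arose with it. The labels do not say whether the deletion strain was 1 clone.

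Alk proteins sit in the membrane of the endoplasmic reticulum and add oxygen to the end carbon of alkanes or fatty acids, with electrons that an NADPH-P450 reductase passes to them. The fatty alcohol made from an alkane is then oxidised to an aldehyde and a fatty acid, which beta-oxidation in the peroxisome breaks down. ALK genes are known to be switched on by alkanes in this yeast through the activator Yas1 and its partner Yas2, which Yas3 holds back. Alk3p and Alk6p are known to act on alkanes and on fatty acids, while Alk11p has no clear substrate. Snf1 is the catalytic subunit of a yeast kinase of the AMPK family, best known from baker's yeast, where it lets cells live on other carbon sources once glucose is gone.

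Libraries held 32315239 to 37094343 counts in the deletion and 33835106 to 38054417 counts in wild type. The labels were checked against the deleted gene. The row nearest to Snf1 in the authors' deposited table by its fold change, standard error and mean had 0 counts in each deletion library, against 3644, 3418 and 2546 counts in wild type replicates 1, 2 and 3. No library went against its label on this row, although the row was itself found through its fold change.

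All 3 genes fell in the deletion, with the largest estimate for ALK11. In RNA from whole cultures, less transcript per cell and fewer cells with the transcript cannot be told apart. Values are CPM (counts scaled to a common library total, here after TMM scaling, which adjusts for differences in composition). Every deletion library lay below every wild type library for each gene, which also held for 24.5% of the 7244 features tested. By edgeR's quasi-likelihood test with Benjamini-Hochberg adjustment over those features, 3 of 3 genes passed at an adjusted p under 0.05 as lower, against 18.7% of all features. The 3 genes were picked by name from the authors' deposited table. It lists only genes with a DESeq2 adjusted p under 0.05 in these same libraries. That the 3 genes passed was therefore largely fixed by the choice, and 3 of 3 is no separate support. The median log2 fold change of the 3 genes was -5.20, and that of all tested features was 0.04.

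**Figure D1:**
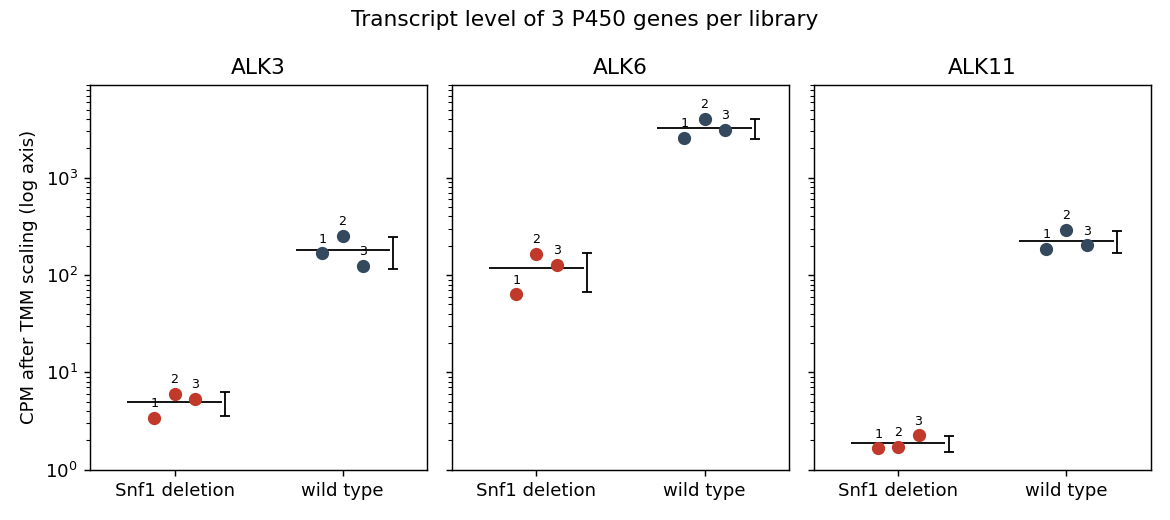
CPM after TMM scaling (log axis) of ALK3, ALK6 and ALK11 in each library, with Snf1 deletion left of wild type; numbers beside points are replicates, lines are group means and bars are ± SD over 3 libraries. In each panel the highest deletion library stands below the lowest wild type library, by 20.9-fold for ALK3, 15.6-fold for ALK6 and 81.9-fold for ALK11.

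ALK6, an enzyme for alkanes and fatty acids, stood at 63.4, 165 and 128 CPM in deletion replicates 1, 2 and 3. In wild type replicates 1, 2 and 3 it stood at 2576, 4046 and 3112 CPM. Replicate 1 was low among the deletion libraries and replicate 2 was high among the wild type libraries, and the groups did not overlap. The means were 119 ± 51.5 CPM in the deletion and 3245 ± 744 CPM in wild type (SD, n = 3 each). The log2 fold change was -4.77 (SE 0.52, adjusted p = 1.69e-05 in edgeR's quasi-likelihood test), or 27.3-fold lower with a 95% confidence interval from 12.6 to 59.3. ALK6 varied most of the 3 genes within the deletion, with an SD of 43.4% of its mean there and 22.9% in wild type. Its 2495 to 6893 counts per deletion library make counting error small beside that spread.

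ALK3, the other of the 3 with activity on both alkanes and fatty acids, stood at 3.38, 5.99 and 5.36 CPM in deletion replicates 1, 2 and 3. In wild type replicates 1, 2 and 3 it stood at 167, 252 and 125 CPM. As for ALK6, the first deletion library was the lowest and the second wild type library the highest, with no overlap of groups. The means were 4.91 ± 1.36 CPM in the deletion and 181 ± 64.4 CPM in wild type (SD, n = 3 each). The log2 fold change was -5.20 (SE 0.42, adjusted p = 1.76e-06 in edgeR's quasi-likelihood test), or 36.9-fold lower with a 95% confidence interval from 19.6 to 69.3. The 133, 250 and 198 counts in deletion replicates 1, 2 and 3 bound those levels to 2.83 to 4.00, 5.27 to 6.78 and 4.64 to 6.16 CPM (exact Poisson 95% intervals, which here and below cover counting error only). The interval of deletion replicate 1 did not meet those of the other two.

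ALK11, without a clear substrate, stood at 1.65, 1.70 and 2.25 CPM in deletion replicates 1, 2 and 3. In wild type replicates 1, 2 and 3 it stood at 184, 294 and 201 CPM. The deletion libraries were close to one another, while wild type replicate 2 was again the highest. The means were 1.87 ± 0.331 CPM in the deletion and 227 ± 59.1 CPM in wild type (SD, n = 3 each). The log2 fold change was -6.92 (SE 0.42, adjusted p = 4.69e-07 in edgeR's quasi-likelihood test), or 121-fold lower with a 95% confidence interval from 64.9 to 226. The gene was still detected without Snf1, at 65, 71 and 83 counts in deletion replicates 1, 2 and 3. Their exact Poisson 95% intervals, 1.27 to 2.10, 1.33 to 2.15 and 1.79 to 2.79 CPM, overlap. Whether the deletion libraries differ in ALK11 was not tested.

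TMM factors were 1.06 to 1.21 in the deletion and 0.781 to 0.941 in wild type. Wild type replicate 2, highest for all 3 genes, had the lowest factor, 0.781. Scaled by library total only, wild type replicate 2 remained the highest, with 3159 against 2424 and 2896 CPM for ALK6, 196 against 157 and 116 CPM for ALK3, and 230 against 173 and 187 CPM for ALK11. Scaling by library size only raised the median of all tested features by 0.36 on the log2 scale, and called 67.5% of changed features as higher, against 49.5% with TMM. The 3 falls were then -4.36 for ALK6, -4.79 for ALK3 and -6.53 for ALK11 on the log2 scale.

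Among all tested features the falls of the 3 genes lay far out in the lower tail. Falls of at least 16-fold were found for 142 features, or 1.96% of those tested, the 3 genes among them. Ordered from the largest fall, ALK11 ranked 24, ALK3 ranked 67 and ALK6 ranked 85 of 7244.

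**Figure D2:**
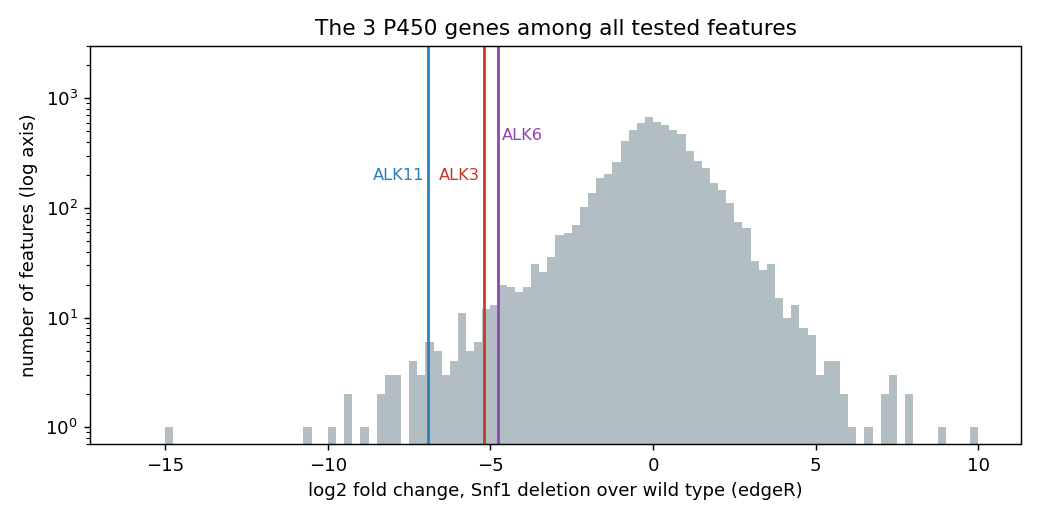
Number of features (log axis) by log2 fold change of the Snf1 deletion over wild type in edgeR, for the 7244 tested features in bins of equal width; vertical lines mark ALK11 at -6.92, ALK3 at -5.20 and ALK6 at -4.77. The lines stand left of the bulk of features, whose median is 0.04.

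Together the 3 genes took 0.00726%, 0.0209% and 0.0155% of all counts in deletion replicates 1, 2 and 3. In wild type replicates 1, 2 and 3 they took 0.275%, 0.359% and 0.320%. The group means were 0.0145 ± 0.00684% in the deletion and 0.318 ± 0.0416% in wild type (SD, n = 3 each), 21.9-fold higher in wild type. The groups did not overlap, and the two-sided exact permutation test gave p = 0.1, the smallest that 3 against 3 libraries allow.

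The makeup of this small pool also differed between the strains. ALK6 took 92.6%, 95.6% and 94.4% of the counts of the 3 genes in deletion replicates 1, 2 and 3, against 88.0%, 88.1% and 90.5% in wild type replicates 1, 2 and 3. ALK11 took 2.41%, 0.984% and 1.66% of them in the deletion, against 6.29%, 6.40% and 5.86% in wild type. ALK3 took 4.94%, 3.47% and 3.96% in the deletion, against 5.70%, 5.48% and 3.64% in wild type. Counts are not corrected for transcript length, so only the shift between strains is read from these shares. It was seen for ALK6 and ALK11 in every library, while the ALK3 shares of the strains overlapped. The 3 shares make up one whole, so the higher ALK6 share and the lower ALK11 share are not separate findings. No test was run on the shares.

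Ratios between 2 of the genes within a library need no scaling between libraries, and 3 such pairs were compared. For each 100 counts of ALK6 there were 2.61, 1.03 and 1.76 counts of ALK11 in deletion replicates 1, 2 and 3, against 7.15, 7.27 and 6.47 counts in wild type replicates 1, 2 and 3. The deletion ratios were all lower and more scattered. The mean log2 ratio was -5.89 ± 0.67 in the deletion and -3.85 ± 0.09 in wild type (SD, n = 3 each), a difference of -2.04, so that ALK11 lay 4.12-fold lower relative to ALK6 without Snf1. For each 100 counts of ALK3 there were 48.9, 28.4 and 41.9 counts of ALK11 in deletion replicates 1, 2 and 3, against 110, 117 and 161 in wild type replicates 1, 2 and 3. That difference was -1.71 on the log2 scale, or 3.28-fold lower in the deletion, again with no overlap. Both comparisons gave p = 0.1 in a two-sided exact permutation test, the smallest the design allows, and 0.15 after adjustment over the 3 pairs, so neither could pass 0.05 in this design.

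ALK3 and ALK6 were not told apart in their response. For each 100 counts of ALK6 there were 5.33, 3.63 and 4.20 counts of ALK3 in deletion replicates 1, 2 and 3, against 6.47, 6.22 and 4.02 in wild type replicates 1, 2 and 3. The strains overlapped. The mean log2 ratio differed by -0.33, with differences between single libraries of the strains from -0.83 to 0.41 (two-sided exact permutation test, p = 0.3, also 0.3 after adjustment over the 3 pairs). This does not show that the 2 genes responded alike.

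**Figure D3:**
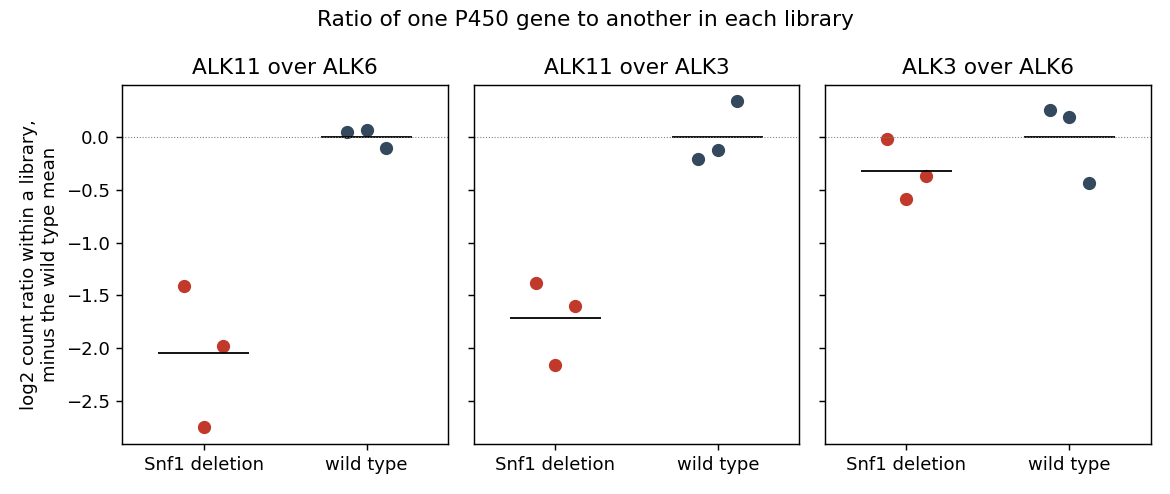
Log2 count ratio of one gene to another within each library, minus the wild type mean, with Snf1 deletion left of wild type and lines at the group means of 3 libraries. ALK11 lies below the wild type libraries relative to ALK6 (mean difference -2.04) and to ALK3 (-1.71) in all 3 deletion libraries, while ALK3 over ALK6 overlaps between strains (-0.33).

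The likeness of the 3 genes over the 6 libraries was read as the root mean square difference of log2 CPM after centring each gene on its mean, a description that takes in the difference between strains. ALK3 and ALK6 differed by 0.32 on this log2 scale. Among 4894 features with a mean of at least 10 CPM, ALK6 ranked 11 in likeness to ALK3, and ALK3 ranked 8 in likeness to ALK6. ALK11 was farther off, at 0.89 from ALK3 and 1.08 from ALK6, ranking 125 and 199 in likeness to them. In likeness to ALK11, ALK3 ranked 53 and ALK6 ranked 74.

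For each gene the 3 other features with the most similar pattern were read. They were picked by closeness over these same 6 libraries, so patterns shared with the gene follow from the choice. The nearest to ALK11 was rna-XM_501314.2, at a distance of 0.11, with 0.508, 0.503 and 0.596 CPM in deletion replicates 1, 2 and 3, against 49.2, 88.1 and 66.3 CPM in wild type replicates 1, 2 and 3. By this choice it shared with ALK11 the low level in the deletion and the high second wild type library. The next were rna-XM_502743.1 (0.22) and rna-XM_503869.1 (0.31), the last known as YALI1_E15555g in the RefSeq annotation of strain CLIB89(W29).

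The nearest to ALK6 was rna-XM_503482.1 (YALI1_E03623g), at a distance of 0.18, with 37.8, 80.1 and 73.1 CPM in deletion replicates 1, 2 and 3, against 1235, 1811 and 1335 CPM in wild type replicates 1, 2 and 3. Like ALK6, for closeness to which it was picked, it had its lowest value in deletion replicate 1. It was followed by rna-XM_504185.1 (YALI1_E24201g) at 0.25 and rna-XM_504525.1 (YALI1_E34163g) at 0.27. The nearest to ALK3 were rna-XM_504911.1 (YALI1_F03883g) at 0.16, rna-XM_501373.1 (YALI1_C03874g) at 0.17 and rna-XM_503993.2 (YALI1_E18927g) at 0.24. The first of these had 1.30, 1.75 and 1.95 CPM in deletion replicates 1, 2 and 3, against 69.5, 94.8 and 41.2 CPM in wild type replicates 1, 2 and 3. In wild type it followed the order of ALK3, again as its choice favours, with replicate 2 highest and replicate 3 lowest.

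The DESeq2 results in the authors' deposited table come from these libraries too, with smaller standard errors and slightly smaller falls for the 3 genes. ALK11 (YALI0_C10054g) is listed there at -6.72 (SE 0.35, adjusted p = 1.24e-78). ALK3 (YALI0_E23474g) is listed in the authors' deposited table at -5.03 (SE 0.37, adjusted p = 4.1e-40). ALK6 (YALI0_B01848g) is listed in the authors' deposited table at -4.60 (SE 0.38, adjusted p = 5.18e-31). They are no independent evidence.

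The other genes of the family were read from the authors' deposited table by name and by locus tag. Of 12 ALK symbols looked up, 9 are named there, ALK3, ALK6 and ALK11 among them. The other 6 are all lower, with a median log2 fold change of -3.93 in the authors' deposited table. Only 28 of its genes carry a name, so these 6 come from a small named set. The 6 include the gene named ALK7, whose tag differs from the one looked up. Of all 2840 genes in it, 1459 are lower and 1381 higher, with a median of -0.82. It lists genes with an adjusted p under 0.05, so a gene outside it cannot be read as unchanged. In the authors' deposited table ALK11 has the largest fall of the ALK genes other than ALK5 at -8.17 and ALK9 at -7.24, of which ALK9 is known for activity on alkanes. ALK3 and ALK6 come next in the authors' deposited table, ahead of ALK1 at -4.33 (SE 0.38), the main alkane hydroxylase gene of this yeast. ALK6 and ALK1 differ there by less than the standard error of either. ALK4 at -3.53, ALK2 at -3.16 and ALK7 at -1.17 follow in the authors' deposited table.

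A tag looked up for the family went the other way. The authors' deposited table gives the name ALK7 to YALI0_E27533g, while YALI0_A15488g, the tag under which ALK7 was looked up here, carries no name and is listed as higher in the deletion, at 1.90 (SE 0.60, adjusted p = 0.00643). Its mean in the authors' deposited table is 73.2 normalised counts, against 622 for the gene named ALK7. The tags looked up for ALK8, ALK10 and ALK12 are not listed there.

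**Figure D4:**
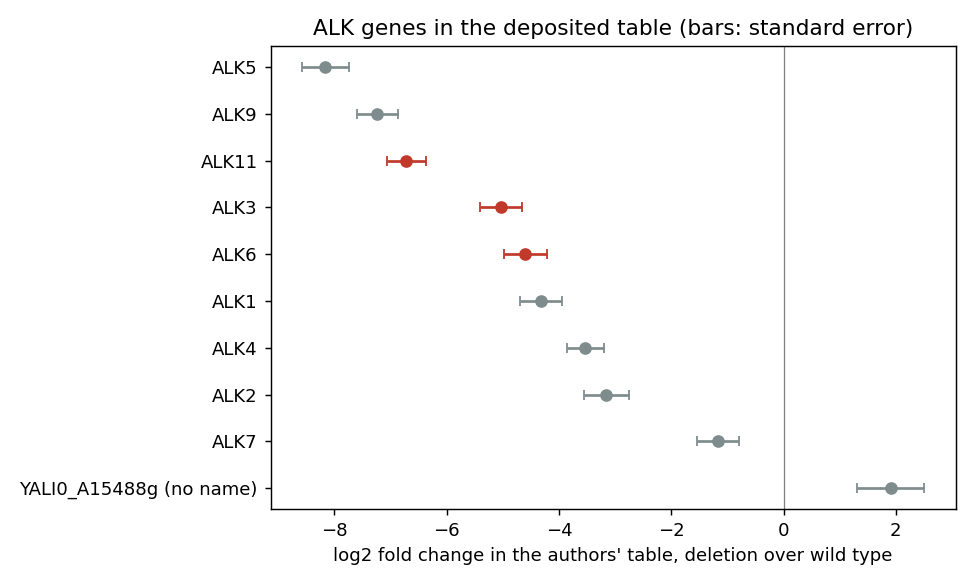
Log2 fold change of the Snf1 deletion over wild type in the authors' deposited table, with its standard error as bars, for the ALK genes found there by name or tag; ALK11, ALK3 and ALK6 are in red. ALK11 at -6.72 lies between ALK9 at -7.24 and ALK3 at -5.03, and YALI0_A15488g at 1.90 alone lies above 0.

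Genes that work with these P450 enzymes were read from the same source. YALI0_D04422g, the tag looked up for the NADPH-P450 reductase that feeds them electrons, is at -2.34 in the authors' deposited table (SE 0.33, adjusted p = 3.56e-11), a smaller fall than that of ALK3, ALK6 or ALK11. Among genes that oxidise the products further, the authors' deposited table has the alcohol dehydrogenase gene ADH7 at -8.04 and the aldehyde dehydrogenase genes FALDH1 at -9.52 and FALDH2 at -4.62. The activator gene Yas1 is at -4.77 and the gene named Yas3, the repressor, at -0.94 in the authors' deposited table. The entry named Yas3 has no usable locus tag there. Its mean is 45848 normalised counts, against 791 for Yas1, and its identity was not checked. Yas2 was not among the genes read. These comparisons share their libraries with those of ALK3, ALK6 and ALK11.

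The genes next to the 3 were then read in the gene order of strain CLIB89(W29), whose RefSeq table (assembly ASM176148v1) shares transcript accessions with the count rows. The deposited counts may follow another genome, so no coordinates are given. For each gene 3 protein-coding rows were taken on each side, the nearest with enough counts to be tested and a match in this order. Tested rows without a match were passed over, so nearer tested genes may be missing. Of these 18 neighbours, 3 were called lower and 1 higher in edgeR, with 18.7% and 18.3% of all tested features called in these directions.

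None of the 6 neighbours of ALK6 passed the test, with log2 fold changes from -1.05 to 0.58. The nearest on its sides, rna-XM_500401.1 and rna-XM_500403.1, were at 0.58 (SE 0.30, adjusted p = 0.148) and 0.34 (SE 0.33, adjusted p = 0.444) in edgeR. ALK6 itself was at -4.77.

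ALK11 had 1 lower neighbour. The adjacent gene rna-XM_501668.1 (YALI1_C14125g) had 2, 8 and 3 counts in deletion replicates 1, 2 and 3, against 110, 95 and 70 counts in wild type replicates 1, 2 and 3. Its level was low in both strains, and the groups did not overlap. Its log2 fold change was -4.69 (SE 0.65, adjusted p = 0.00013 in edgeR's quasi-likelihood test). The gene on the other side, rna-XM_501666.1, was at -0.38 (SE 0.37, adjusted p = 0.43 in edgeR).

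An assembled transcript of StringTie, MSTRG.2429.1, carries the number after that of the ALK11 locus, MSTRG.2428, in the authors' deposited table. It had 2, 6 and 12 counts in deletion replicates 1, 2 and 3, against 880, 1402 and 1774 counts in wild type replicates 1, 2 and 3, or -7.92 on the log2 scale in edgeR (SE 0.57, adjusted p = 1.01e-06). The authors' deposited table gives no strand for the ALK11 locus, and whether reads were counted by strand is not given in the sources used here. Whether MSTRG.2429.1 overlaps ALK11 is not known from its number. Should a transcript overlap ALK11 on either strand, its reads may not be told apart from those of ALK11, depending on how reads were counted. The part of such reads in the fall of ALK11 was not tested.

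ALK3 had 2 lower neighbours on one side, rna-XM_504309.1 at -2.64 (adjusted p = 0.00064 in edgeR) and rna-XM_504307.1 at -2.29 (adjusted p = 0.000929). The neighbour between them and ALK3, rna-XM_504310.1, was at 0.41 (SE 0.42, adjusted p = 0.473 in edgeR). On its other side the nearest tested and matched gene, rna-XM_504319.1, was 20 annotated genes away, a gap that may hold tested rows without a match. This gene rose by 1.96 (adjusted p = 0.00737 in edgeR), with 3.25, 6.30 and 8.02 CPM in the deletion against 2.07, 0.875 and 1.55 CPM in wild type.

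**Figure D5:**
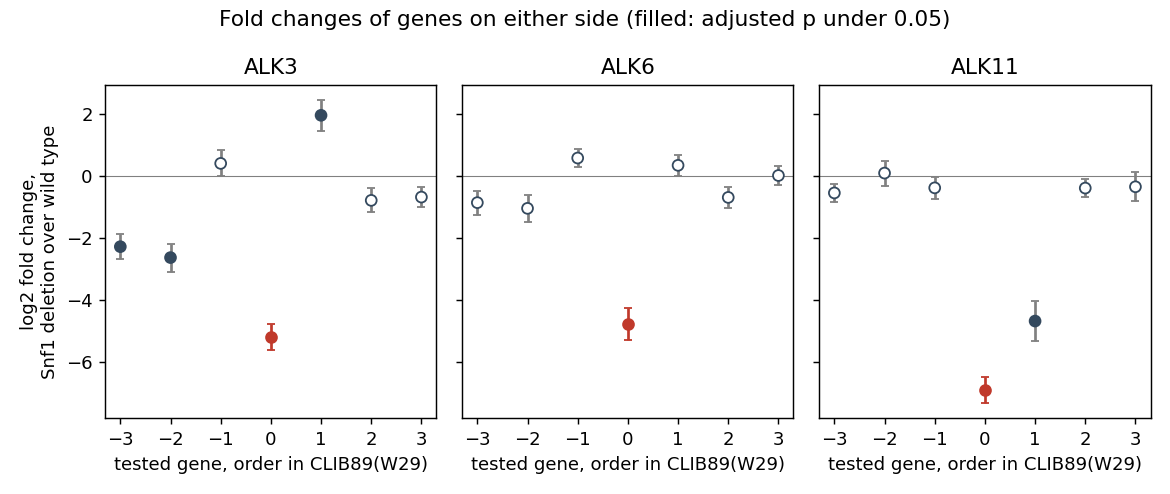
Log2 fold change of the Snf1 deletion over wild type in edgeR (bars: SE) for ALK3, ALK6 and ALK11 in red at position 0. Around them are the 3 nearest tested protein-coding genes on each side with a match in the gene order of CLIB89(W29). Filled points passed an adjusted p of 0.05. Of the 18 neighbours, 3 were called lower and 1 higher, and the adjacent gene after ALK11 is at -4.69.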

How the data were processed

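RNA from 3 Snf1 deletion and 3 wild type cultures was sequenced. The authors deposited whole-number counts per transcript feature for each library. They also deposited a DESeq2 table whose means are a signal of normalised counts, whose log2 fold changes are recorded as a score (a last line without a gene holds a stray value and was dropped), and whose p-values were used as deposited. Per the submitters' processing notes, the tools were DESeq2 2.11.40.7, StringTie, HISAT2 2.2.1 and Trimmomatic 0.38.0. For the genome build and the counting options nothing is stated in the sources at hand. How the authors counted reads that fit several similar ALK genes was not tested.

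Counts were fitted with edgeR 4.0.16 in R 4.3.3 (TMM, filterByExpr, needing about 10 counts in 3 libraries and 15 in all, quasi-likelihood test, no covariates). The SE was taken as the absolute log2 fold change over the square root of F, and its 95% interval uses the moderated degrees of freedom. Alternatives used DESeq2 1.42.0 and limma 3.58.1. The script was tested on simulated data. Ratios used counts plus 0.5 and exact permutation tests in scipy 1.17.1. No file pairs the count rows with the locus tags or names. As a check of the rows, each gene's row ranked 1 among the rows of its chromosome in closeness to the deposited mean, fold change and standard error (DESeq2 with a fold-change prior). Its distance, on log2 and SE scales combined, was 0.326 for ALK3, 0.306 for ALK6 and 0.395 for ALK11, against 0.524, 0.980 and 1.49 for the next row, so the margin was smallest for ALK3. Replicates differed beyond counting noise in every pair (chi-square per feature of 299 or more).

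The members, gene lists and named genes (the 3 genes, the ALK family, named oxidising enzymes and Yas regulators, the reductase and the 3 most alike features per gene) were chosen with earlier results of these data known. The neighbours, their number per side and MSTRG.2429.1 were chosen after values were seen.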

Additional observations from a re-analysis of the deposited data

How the results depend on the processing

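The falls of ALK3, ALK6 and ALK11 kept their direction and passed an adjusted p of 0.05 under all 15 alternatives run for each (other scalings, filters and tests, the replicate block and leaving out each library). Their log2 fold changes ranged from -5.40 to -4.79 for ALK3, from -5.09 to -4.36 for ALK6 and from -7.08 to -6.53 for ALK11. The largest adjusted p was 0.000462, for ALK6 without wild type replicate 3. With the replicate block they were -5.19, -4.85 and -6.90, with 2754 features called against 2685 without it. The SE of ALK6 was 0.40 with the block and 0.52 without it. Same-numbered libraries correlated in their deviations at 0.05, 0.15 and 0.14 for replicates 1, 2 and 3. The values of replicates 2 and 3 were the highest of all pairs between strains. Deletion replicate 1 correlated better with wild type replicate 3 (0.08) than with replicate 1. These values did not settle whether the numbers pair the samples, and the main fit had no pairing. Tested against a 2-fold change (glmTreat), 1146 features passed, 641 of them lower, against 1356 lower without that limit, fewer because the test asks for more than a difference from 0. Leaving out a library gave 1824 to 2717 features, with 951 to 1366 lower. ALK11 over ALK6 ranged from -2.36 to -1.69, ALK11 over ALK3 from -1.88 to -1.49 and ALK3 over ALK6 from -0.55 to -0.20 when a library was left out. With 2 against 3 libraries the smallest exact p is 0.2. Depth limits ALK11 in the deletion, where 65 to 83 counts per library stand behind each value.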
